A study of Mus musculus with 6 samples.

Results

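The genes described here code for enzymes that keep the ATP level of a working muscle fibre steady: Ckm, Ckmt2, Ak1 and Ampd1. They were chosen by symbol, as probes of a spotted mouse array annotated with exactly 1 of these 4 names. All 4 were on the array, with 33 of the 13872 probes: 5 for Ckm, 16 for Ckmt2, 6 for Ak1 and 6 for Ampd1. All 4 had a value on each of the 6 arrays, as had 3180 of the 3939 genes with a symbol of their own.

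The data are total RNA of mouse skeletal muscle, hybridised on 6 arrays of 2 channels. On every array the muscle sample was set against the same reference RNA from control muscle, called Pre. The groups were mice paced electrically for 3 h through an implanted pacer, with harvest at 0 h (as soon as pacing stopped), 1 h, 3 h, 8 h or 24 h, and sham-operated mice whose implanted pacer stayed inactive. Sham mice were matched in time to the 0 h group alone, so a difference from sham at a later time mixes pacing with elapsed time. Strain, age, the muscle sampled and the number of mice per RNA are not stated here. Each group had 1 array, so there was no replicate check and no p-value was computed. Values are log2 ratios, likely of sample over Pre, with each array centred on its median, and all directions rest on that reading. The log base of the deposited values was inferred as log10, so all fold sizes rest on that inference. The SD beside a value is the spread over the probes of a gene on 1 array or 1 pair of arrays, not a spread between animals. With no signal levels, whether a gene was present in the tissue could not be checked. In whole muscle, fewer cells of a type and less RNA per cell cannot be told apart.

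ATP is regenerated in contracting muscle by a fast buffer, in which creatine kinase moves a phosphate from phosphocreatine to ADP. Ckm codes for the cytosolic muscle form of creatine kinase, and Ckmt2 for the sarcomeric form in mitochondria, which makes phosphocreatine from newly made ATP. When ADP builds up, adenylate kinase, coded in muscle mainly by Ak1, turns a pair of ADP molecules into ATP and AMP. Ampd1 codes for the muscle AMP deaminase, which removes that AMP as IMP and is most abundant in fast fibres.

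Of the 4 genes, Ampd1 stood farthest from both unpaced RNAs at 8 h and 24 h. It was 2.27-fold lower at 24 h than in sham, and its ratio to Pre was lower at each later time from 1 h onwards. Ckmt2 lay close to Pre until 8 h and below it at 24 h, Ak1 lay moderately below Pre on every paced array, and Ckm showed no difference from sham that its probes shared.

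**Figure D1:**
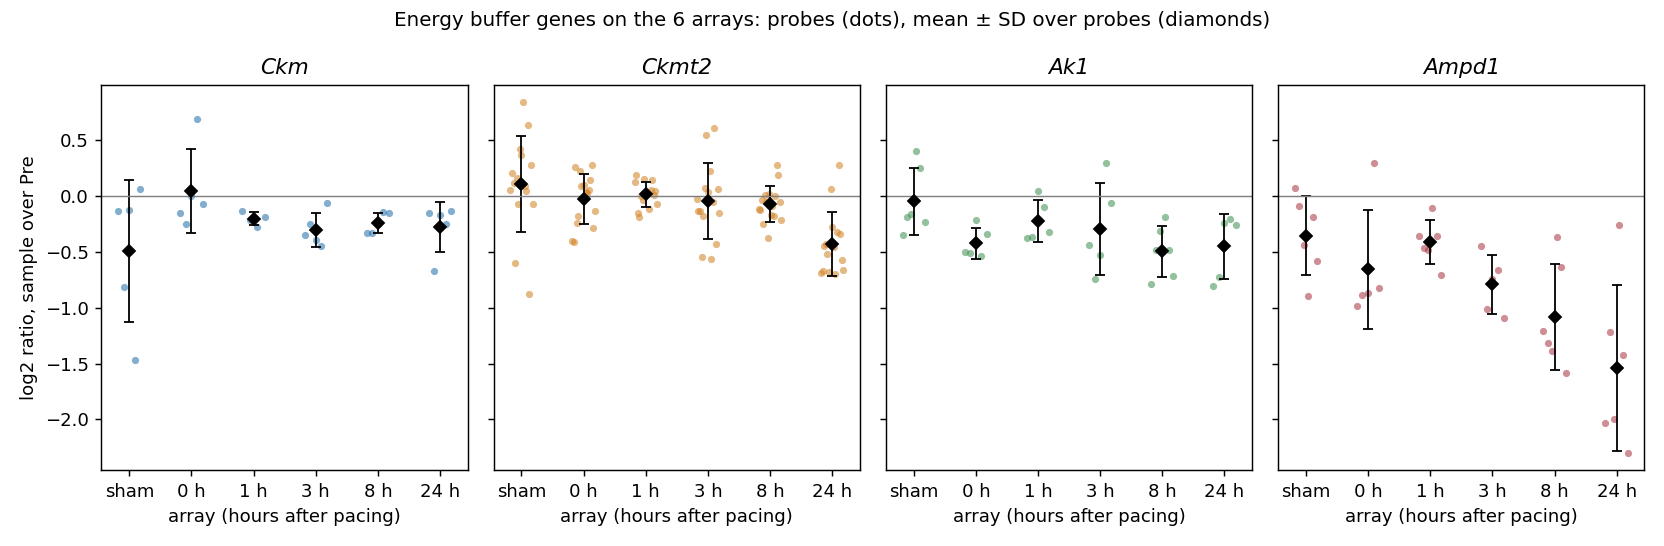
Log2 ratios of sample over Pre (vertical axis) for Ckm, Ckmt2, Ak1 and Ampd1 on the sham array and at 0 h, 1 h, 3 h, 8 h and 24 h after pacing. Dots are single probes and diamonds with bars are the mean ± SD over probes. The Ampd1 mean lies at -0.41 at 1 h and -1.54 at 24 h, while the other means stay between -0.50 and 0.11 on all 6 arrays.

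For the creatine kinases, cytosolic and mitochondrial, the bases before the RefSeq gene starts are shown first. A link between these bases and the array values was not tested. RefSeq's promoter windows reach 250 bases upstream of a transcript start in the GRCm38.p6 build. For Ckmt2 38 of these bases lie inside the gene as annotated and are left out, so 250 bases are shown for Ckm and 212 for Ckmt2, 5′ to 3′ on the strand of the gene. Capitals mark CAGCTG, a form of the E-box (CANNTG) that muscle regulators of the MyoD family are known to bind. The motif reads the same on both strands.
Ckm, chr7:19410844-19411093, plus strand: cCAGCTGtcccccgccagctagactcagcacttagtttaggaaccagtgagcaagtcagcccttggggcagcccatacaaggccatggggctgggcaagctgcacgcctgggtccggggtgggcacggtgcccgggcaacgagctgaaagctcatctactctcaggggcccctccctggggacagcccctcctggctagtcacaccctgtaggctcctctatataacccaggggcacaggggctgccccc
Ckmt2, chr13:91876924-91877135, minus strand: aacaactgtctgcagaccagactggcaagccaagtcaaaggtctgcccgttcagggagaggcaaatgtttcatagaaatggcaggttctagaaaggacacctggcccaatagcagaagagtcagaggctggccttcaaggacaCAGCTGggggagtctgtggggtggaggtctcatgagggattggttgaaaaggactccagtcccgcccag
Both stretches hold 1 CAGCTG, which begins 249 bases before the annotated gene start in Ckm and 69 bases before it in Ckmt2. Of all 32851 RefSeq windows of 250 bases, 13.0% hold CAGCTG and 66.2% hold CANNTG in some form, a class that includes CAGCTG. The Ckm stretch has 1 CANNTG and the Ckmt2 stretch 4. RefSeq gives Ak1, on chromosome 2, 4 windows of 250 bases, of which 2 hold CAGCTG. These matches describe letters and nothing about binding. Windows were matched by symbol for 3 of the 4 genes.

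Ckm, the most abundant creatine kinase of muscle, had a mean log2 ratio to Pre of -0.49 ± 0.64 in sham (SD over 5 probes). After pacing it was 0.04 ± 0.38 at 0 h (5 probes), -0.20 ± 0.06 after 1 h (4 probes), -0.30 ± 0.15 after 3 h, -0.24 ± 0.09 after 8 h and -0.27 ± 0.22 after 24 h (5 probes each). From 1 h onwards every measured Ckm probe lay below Pre, and the means of these 4 arrays differed from each other by less than the SD over probes at 3 h. Ordered by level, 0 h was highest, then 1 h, 8 h, 24 h, 3 h and sham, and no neighbours in this order differed by more than the larger of their probe SDs. The differences from sham were 0.54 at 0 h, 0.29 after 1 h, 0.19 after 3 h, 0.25 after 8 h and 0.22 after 24 h in log2 units, and all were smaller than their probe SD, which was 0.94 at 0 h and between 0.38 and 0.67 later. The 1 h value sets a mean of 4 probes against a sham mean of 5. Over the 4 probes measured on both arrays it was 0.05.

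Of the 5 Ckm probes, 2 stood well above their sham values at 0 h. Probe 4, numbered in the order of the deposited table, stood at 0.69 at 0 h and -1.47 in sham, a difference of 2.16. Probe 2 stood at -0.25 at 0 h and -0.81 in sham. Probes 1, 3 and 5 stood at -0.15, 0.01 and -0.07 at 0 h, against -0.13, -0.12 and 0.06 in sham, so that their differences from sham were -0.02, 0.13 and -0.14. Probe 4 was not measured at 1 h, and at 3 h, 8 h and 24 h probes 2 and 4 were the 2 probes above sham. Probes 3 and 4 share 1 EST accession, yet differed by 1.34 on the sham array and by 0.69 at 0 h, against 0.05 after 3 h, 0.11 after 8 h and 0.08 after 24 h. Without probe 4, the Ckm difference from sham was 0.13 at 0 h, 0.05 after 1 h, -0.01 after 3 h, -0.01 after 8 h and -0.03 after 24 h. Leaving this probe out was chosen after the values had been seen. With the median of all 5 probes in place of their mean, the differences were 0.06 at 0 h, -0.07 after 1 h, -0.22 after 3 h, -0.12 after 8 h and -0.04 after 24 h. The sign of the Ckm difference from 3 h onwards therefore depended on how probe 4 was weighed.

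Spots that share an accession give a scale for such disagreement. Over 42 to 69 pairs of spots with the same EST accession, measured in both places, the median size of the difference was 0.65 in sham, 0.43 at 0 h, 0.20 after 1 h, 0.60 after 3 h, 0.34 after 8 h and 0.47 after 24 h. A difference of 1 or more occurred in 25.5% of the pairs on the sham array, 9.43% at 0 h and 3.85% after 1 h. Such a difference occurred in 25.5% of the pairs after 3 h, 2.90% after 8 h and 33.3% after 24 h. The 24 h array thus had the largest share. The 1.34 between the Ckm spots on the sham array lay within the 95th percentile of these pairs, which was 1.68.

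Ckmt2, the mitochondrial partner of Ckm, had the most probes. Its mean log2 ratio to Pre was 0.11 ± 0.43 in sham (SD over 15 probes), -0.03 ± 0.22 at 0 h (16 probes), 0.02 ± 0.11 after 1 h (15 probes), -0.04 ± 0.34 after 3 h (15 probes), -0.07 ± 0.16 after 8 h (16 probes) and -0.43 ± 0.29 after 24 h (15 probes). The 24 h array was the low array: 13 of 15 probes lay below Pre there, with a range from -0.70 to 0.28, against 4 of 15 in sham, where the range was -0.88 to 0.84. The probe ranges of 24 h and sham overlapped. Ordered by level, sham was highest, then 1 h, 0 h, 3 h, 8 h and 24 h, and the last step was the 1 that exceeded the larger probe SD of its neighbours.

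Against sham the Ckmt2 differences were -0.14 at 0 h, -0.09 after 1 h, -0.15 after 3 h and -0.18 after 8 h, each smaller than its probe SD of 0.29 to 0.49. At 24 h the difference was -0.54, a 1.45-fold lower mean, and -0.47 ± 0.44 over the 14 probes measured on both arrays, of which 11 were lower at 24 h and 3 higher. The step from 8 h to 24 h does not involve the sham array. It was -0.36 (probe SD 0.28), with 13 of 15 probes lower at 24 h than at 8 h, while the earlier steps were 0.04 from 0 h to 1 h, -0.06 from 1 h to 3 h and -0.03 from 3 h to 8 h. Of the 3180 genes, 10.5% had a more negative step from 8 h to 24 h than Ckmt2. The other probe pair with a shared accession, Ckmt2 probes 6 and 7, stood at -0.68 and 0.06 at 24 h, against -0.05 and -0.38 at 8 h, so this pair of spots did not share a direction.

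Ak1, which codes for the cytosolic adenylate kinase of muscle, had a mean log2 ratio to Pre of -0.04 ± 0.30 in sham (SD over 6 probes). On the paced arrays it was -0.42 ± 0.14 at 0 h (5 probes), -0.22 ± 0.19 after 1 h (5 probes), -0.29 ± 0.41 after 3 h (5 probes), -0.50 ± 0.23 after 8 h (6 probes) and -0.45 ± 0.29 after 24 h (5 probes). All measured probes were below Pre at 0 h, 8 h and 24 h, and 4 of 5 were after 1 h and after 3 h. In sham 4 of 6 were below Pre. The order of levels was sham, 1 h, 3 h, 0 h, 24 h and 8 h from high to low, with each neighbour within the larger probe SD of the next.

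Ak1 was the member with the smallest probe SD of the differences from sham at all 5 times. Every probe measured on both arrays was lower after pacing than in sham, 5 of 5 at 0 h, 1 h, 3 h and 24 h and 6 of 6 at 8 h. The mean differences over these probes were -0.29 ± 0.30 at 0 h, -0.24 ± 0.12 after 1 h, -0.29 ± 0.19 after 3 h, -0.45 ± 0.21 after 8 h and -0.44 ± 0.21 after 24 h. From gene means the values in the same order were -0.38, -0.18, -0.25, -0.45 and -0.40, and 2-fold was not reached at any time. The sham array is shared by all 5 differences, so a low or high sham value enters each of them. Among the paced arrays the Ak1 means spanned 0.27, and 17.4% of genes had a smaller range. With the median of the probes in place of the mean, the 24 h difference was -0.090, from medians of -0.26 at 24 h and -0.17 in sham.

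Ampd1 had the largest differences of the 4 genes at 8 h and 24 h. Its mean log2 ratio to Pre was -0.35 ± 0.36 in sham (SD over 6 probes), -0.65 ± 0.53 at 0 h (5 probes), -0.41 ± 0.20 after 1 h (6 probes), -0.79 ± 0.26 after 3 h (5 probes), -1.08 ± 0.48 after 8 h (6 probes) and -1.54 ± 0.75 after 24 h (6 probes). The 8 h and 24 h arrays were the low ones, and all 6 probes lay below Pre on both. The order of levels was sham, 1 h, 0 h, 3 h, 8 h and 24 h from high to low, and neighbours in it differed by less than the larger of their probe SDs. Of all 3180 genes, 0.440% had a lower ratio to Pre at 8 h and 0.377% at 24 h.

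Probe by probe, Ampd1 at 24 h stood at -2.04, -1.22, -2.00, -0.26, -1.42 and -2.30 for probes 1 to 6. In sham the same probes stood at 0.07, -0.09, -0.44, -0.90, -0.19 and -0.58. The 24 h values of probes 1, 2, 3, 5 and 6 were all below the lowest sham value of any probe, and probe 4 went the other way. The differences from sham at 24 h were thus -2.11, -1.12, -1.56, -1.23 and -1.72 for those 5 probes and 0.63 for probe 4.

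**Figure D2:**
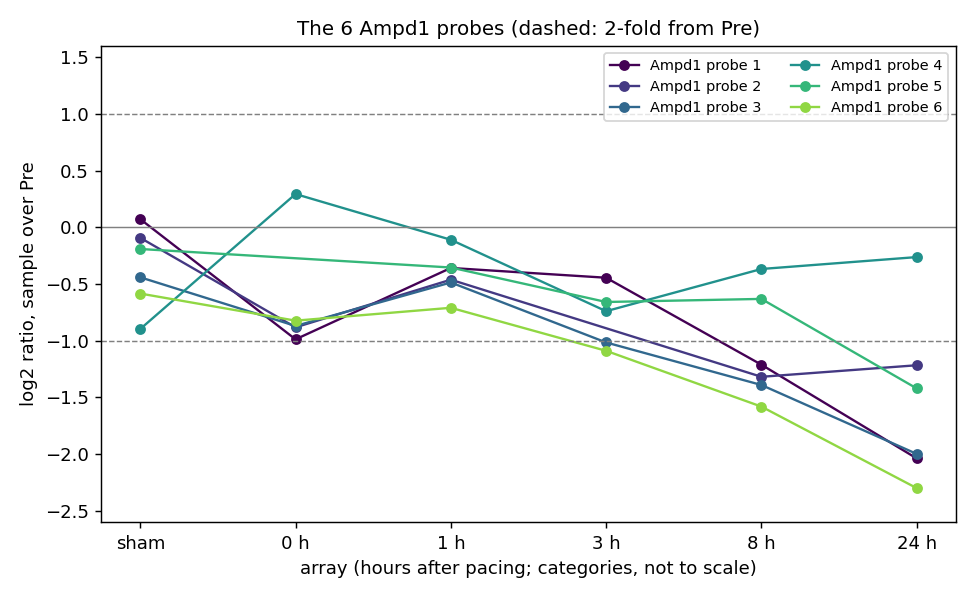
Log2 ratio of sample over Pre (vertical axis) for each of the 6 Ampd1 probes on the 6 arrays, with lines joining the measured values of a probe and dashed lines at 2-fold from Pre. Probes 1, 2, 3, 5 and 6 lie between -1.22 and -2.30 at 24 h, and probe 4 lies at -0.26.

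Against sham, Ampd1 differed by -0.30 at 0 h (probe SD 0.87 over the 5 probes measured on both arrays), -0.06 after 1 h (0.44, 6 probes), -0.43 after 3 h (0.30, 5 probes), -0.73 after 8 h (0.68, 6 probes) and -1.18 after 24 h (0.96, 6 probes). The differences at 3 h, 8 h and 24 h were larger than their probe SDs, and the 24 h value was past 2-fold, as it was against Pre. At 8 h 5 of 6 probes were lower than in sham, 2 of them at least 2-fold. Only 41 of 3180 genes had a lower difference from sham at 24 h. Without probe 4, a choice made after the values had been seen, the 5 differences were -0.64 at 0 h, -0.23 after 1 h, -0.55 after 3 h, -0.98 after 8 h and -1.55 after 24 h. Leaving out probe 1 instead gave -0.998 at 24 h, just short of 2-fold, and 0.02 after 1 h, on the other side of 0.

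The course of Ampd1 among the paced arrays does not rest on sham, but its order from 1 h onwards rests on leaving the array spreads unscaled. From 0 h to 24 h its mean differed by -0.89, and all 5 probes measured on both arrays were lower at 24 h, with differences from -1.48 to -0.33. From 1 h to 3 h the difference was -0.38, with 5 of 5 probes lower at 3 h. From 3 h to 8 h it was -0.29, with 3 of 5 lower, and from 8 h to 24 h it was -0.46, with 4 of 6 lower. From 0 h to 1 h the mean was higher by 0.24, with 4 of 5 probes higher at 1 h. The range of Ampd1 over the 5 paced arrays, 1.13, exceeded that of 94.3% of genes, whose median range was 0.48. The Pre channel is common to these arrays, and 1 array stands for each time.

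As a set, 3 of the 4 genes lay below sham at all 5 times (Ckmt2, Ak1 and Ampd1), a pattern that 22.5% of all genes showed, and 2 lay below Pre at all 5 times (Ak1 and Ampd1), against 18.3% of all genes. Ckmt2 and Ampd1 were lower at each step through 1 h, 3 h, 8 h and 24 h, as were 3.21% of genes. With arrays scaled to a common spread, Ckmt2 kept this order and Ampd1 did not. Over the probes measured on all 6 arrays Ampd1 kept it and Ckmt2 did not, at -0.07 after 3 h and -0.05 after 8 h. The Ckmt2 steps from 1 h to 3 h, -0.06, and from 3 h to 8 h, -0.03, were far smaller than their probe SDs of 0.28 and 0.32. The median of the 4 differences from sham was -0.22 at 0 h, -0.07 after 1 h, -0.20 after 3 h, -0.32 after 8 h and -0.47 after 24 h, beside 0.04, 0.03, 0.02, 0.06 and 0.08 for all genes.

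No member was 2-fold from sham at 0 h, 1 h, 3 h or 8 h, where 5.97%, 1.32%, 2.14% and 3.24% of all genes were. At 24 h 1 of 4 was, Ampd1, with 5.82% of all genes 2-fold in either direction, 2.80% 2-fold lower, and 0.818% 2-fold lower than both sham and Pre. Against Pre, Ampd1 was the 1 member at least 2-fold away at 8 h and at 24 h, where 2.36% and 5.41% of genes were. No member was 2-fold from Pre in sham, at 0 h, 1 h or 3 h, with 3.33%, 2.17%, 0.849% and 4.97% of genes. Between successive paced times no member reached 2-fold; 0.943% of genes did from 0 h to 1 h, 1.42% from 1 h to 3 h, 2.26% from 3 h to 8 h and 0.786% from 8 h to 24 h.

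**Figure D3:**
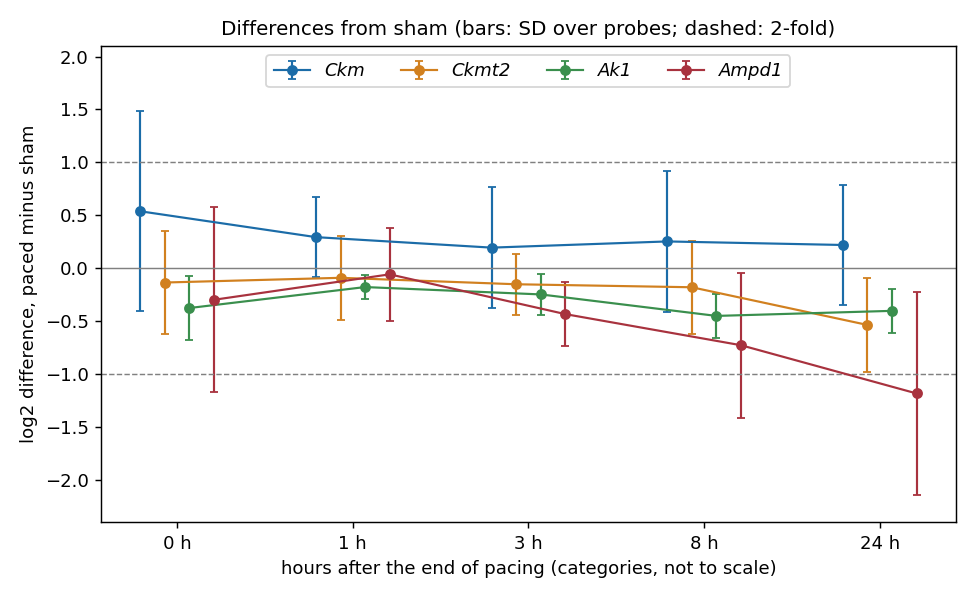
Log2 difference, paced minus sham (vertical axis), of the 4 gene means at each time after pacing, with bars for the SD of the differences over probes measured on both arrays and dashed lines at 2-fold. Ampd1 is at -0.06 after 1 h and -1.18 after 24 h, Ckmt2 moves below -0.5 after 24 h alone, and Ckm stays above 0, although with arrays scaled to a common spread it falls below 0 at 1 h. The widest bars are those of Ampd1 at 24 h, 0.96, and of Ckm at 0 h, 0.94. The Ckm point at 1 h, 0.29, becomes 0.05 over the probes measured on both arrays.

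**Figure D4:**
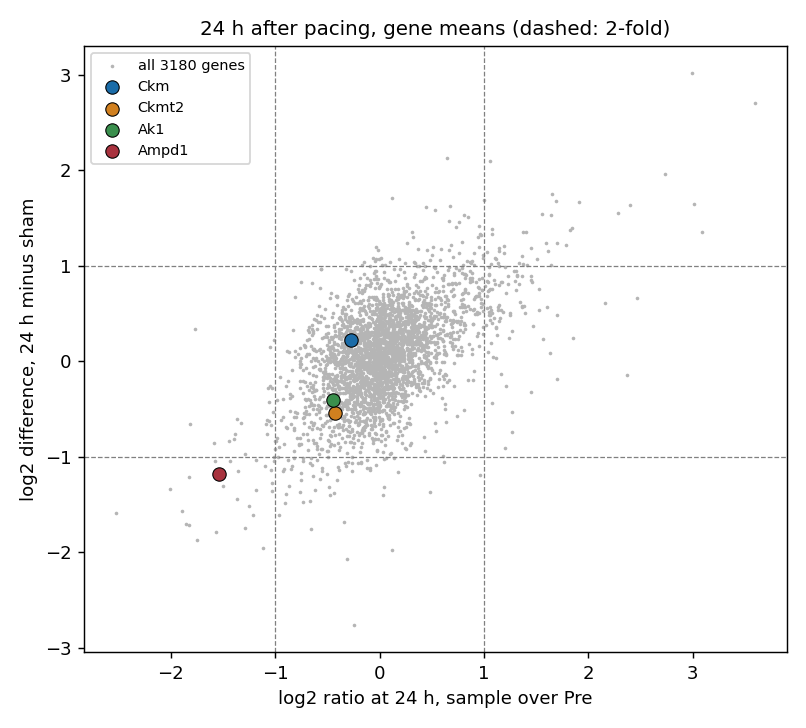
Each grey point is 1 of 3180 genes at 24 h, with its log2 ratio to Pre on the horizontal axis and its log2 difference from sham on the vertical axis, both of which use the same 24 h value. Ampd1 lies past both dashed 2-fold lines in the lower left, at -1.54 and -1.18, and the other 3 members lie inside them.

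The spread of the probes set how firmly each gene could be placed. Among genes with 4 or more measured probes, the median probe SD was 0.35 in sham, 0.26 at 0 h, 0.15 after 1 h, 0.34 after 3 h, 0.18 after 8 h and 0.31 after 24 h. Ckm exceeded it at 0 h (0.38) and in sham (0.64) and lay below it at every later time. Ampd1 exceeded it most at 8 h (0.48) and 24 h (0.75), where probe 4 was the highest. By the robust SD over all probes, the 1 h array had the narrowest distribution of ratios, at 0.18, and the sham array the widest, at 0.49. With arrays scaled to a common robust SD, Ampd1 stood at -1.30 from sham at 8 h, past 2-fold, and at -1.08 at 24 h. Under the same scaling Ckm at 1 h stood at -0.05, on the other side of 0, as it did with probe medians at 1 h, 3 h, 8 h and 24 h.

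The other genes of the same chemistry were sparsely covered. Of 50 genes on 6 lists of pathway neighbours, 16 had a probe and 13 a value on all 6 arrays. Of these 13, 1 was 2-fold lower and 1 was 2-fold higher than sham at 0 h, none was 2-fold away after 1 h and 3 h, and 1 was 2-fold lower after 8 h and after 24 h. The share of all genes 2-fold from sham was 5.97% at 0 h, 1.32% after 1 h, 2.14% after 3 h, 3.24% after 8 h and 5.82% after 24 h. The gene 2-fold lower at 0 h, 8 h and 24 h was Prkag3, a regulatory subunit of the AMP-activated kinase found in fast muscle, with differences of -1.30, -1.37 and -1.14 on its single probe. The gene 2-fold higher at 0 h was Hprt, which makes IMP and GMP by purine salvage, at 1.10 on a single probe, with 0.33 at 0 h and -0.77 in sham against Pre.

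Ckb, the brain form of creatine kinase, also present in many non-muscle cells, had 1 probe, at 0.35 in sham, 0.76 at 0 h, 0.26 after 1 h, 0.48 after 3 h, 0.59 after 8 h and 0.78 after 24 h. It was thus below sham at 1 h, by a difference of -0.10, and above it at the other times, by 0.13 after 3 h and 0.42 after 24 h. Gamt, the last enzyme of creatine synthesis, had 1 probe that was not measured at 0 h and stood at 0.74 at 24 h and 0.10 in sham. Ak3, the mitochondrial matrix adenylate kinase that uses GTP, differed from sham by -0.12 at 0 h, -0.15 after 1 h, 0.36 after 3 h, -0.16 after 8 h and -0.17 after 24 h. Adssl1 codes for the muscle adenylosuccinate synthetase, which takes the IMP made by Ampd1 back towards AMP. On 14 probes its differences from sham lay between -0.06 and 0.05 at all 5 times, with -0.03 ± 0.37 (SD over 12 probes) at 24 h, so the enzyme gene that follows Ampd1 in the purine nucleotide cycle stayed near sham while Ampd1 stood at -1.18.

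Among genes for the exit of ATP from mitochondria, Slc25a4, the muscle ADP/ATP carrier, had 63 probes. Its differences from sham were -0.31 at 0 h, -0.23 after 1 h, -0.28 after 3 h, -0.28 after 8 h and -0.50 after 24 h (probe SD 0.47 over 58 probes after 24 h). Its 24 h value was close to the -0.54 of Ckmt2, whose product works beside the carrier in the intermembrane space. At the earlier times Slc25a4 lay farther below sham than Ckmt2. The Ckmt2 values there were -0.14 at 0 h, -0.09 after 1 h, -0.15 after 3 h and -0.18 after 8 h. Vdac3, an outer membrane channel, was at -0.52 at 24 h (probe SD 0.30, 4 probes), Slc25a3 at -0.29 and Vdac1 at -0.20. Of the 5 measured genes of this list, 4 thus lay below sham at 24 h. The 1 above it was Vdac2, at 0.18, with a probe SD of 0.52 over 3 probes.

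**Figure D5:**
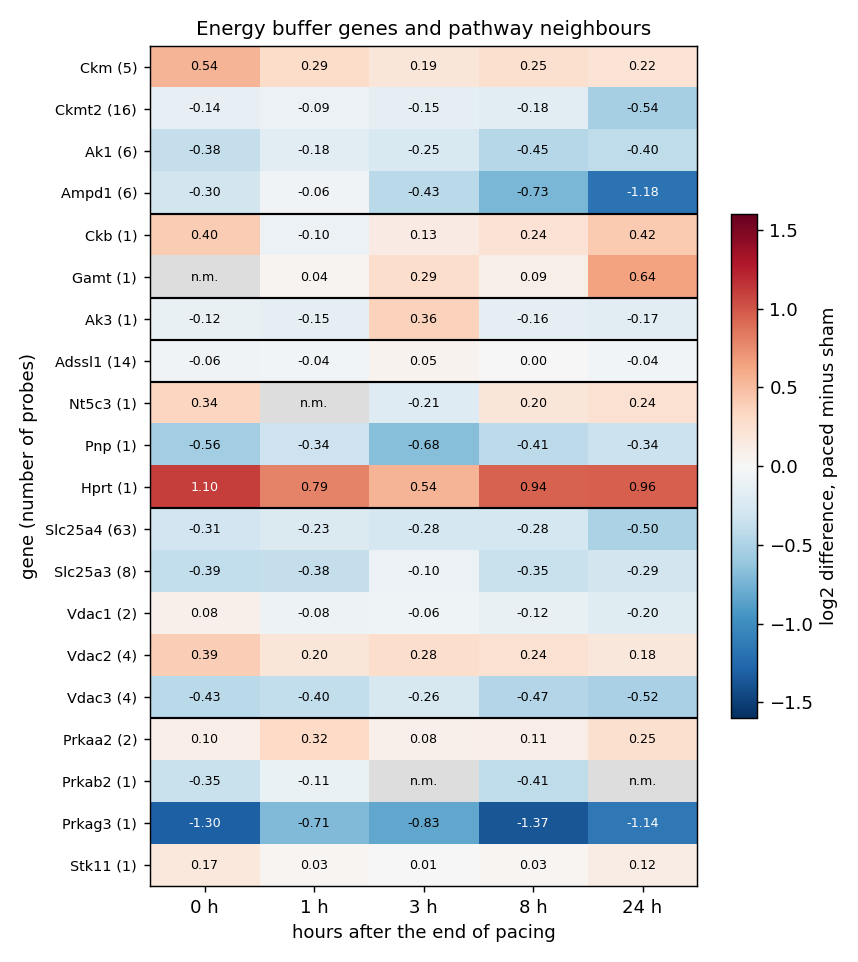
Log2 difference, paced minus sham, for the 4 genes (top rows) and the 16 pathway neighbours with a probe, at each time after pacing. The number of probes is in brackets, n.m. marks a value not measured, and black lines separate the lists. Ampd1 reaches -1.18 at 24 h and Prkag3 is at -0.71 or lower at every time.

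Markers of other cell types give the sample's makeup only as ratios. Of 6 muscle fibre markers, 5 had a value on all arrays, and their differences from sham at 24 h ran from -0.55 for Mb, the oxygen store myoglobin, to 0.47 for Myh4, a fast myosin, with a median of -0.06 and none 2-fold away. The 5 slow fibre markers had a median of -0.47 at 24 h, from -0.60 to 0.32. Both measured fibroblast markers of 4, Pdgfra and Dcn, were below sham at 24 h, at -0.91 and -0.58. The 3 measured endothelial markers of 4 lay between -0.12 and 0.16 at 24 h, the 1 measured blood marker of 3, Hba-a1, was at -0.44, and the 1 adipocyte marker of 4, Fabp4, at -0.52. Of the 2 leukocyte markers measured on both arrays, Lyz2 was at 0.05 and Ptprc at -0.33. The smooth muscle marker Acta2 was at -0.70, and the 3 heart muscle markers lay between -0.26 and 0.19 at 24 h. Pdgfra, Lyz2, Ptprc and Acta2 rested on 1 probe each. So did Pecam1 and Tek among the endothelial markers and Tnnt1 among the slow fibre markers. The part of these marker differences in the values of Ampd1 and Ckmt2 at 24 h was not tested.

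The genes whose 6 ratios were most like those of a member were taken from 1135 genes with at least 2 probes and a value on all arrays, by the smallest root mean square difference. Nearest to Ampd1 were Casq1, the calcium store protein of fast fibres, at 0.17 (9 probes), Gpd1, cytosolic glycerol-3-phosphate dehydrogenase, at 0.24 (2 probes), and Prss23 at 0.28 (2 probes). Casq1 was the 1 gene within 0.20 of Ampd1, with ratios to Pre of -0.39 in sham, -0.82 at 0 h, -0.77 after 1 h, -0.71 after 3 h, -1.16 after 8 h and -1.43 after 24 h. Ckmt2 had 162 genes within 0.20, led by Myot, the Z-disc protein myotilin, at 0.05 (5 probes), Abhd16a at 0.07 and Rgs5 at 0.07. Ak1 had 52, led by Rps2, a ribosomal protein gene, at 0.08 (7 probes), Ldb3, a Z-disc protein gene, at 0.09 (15 probes), and Zyg11b at 0.11. Ckm had 123, led by Cnot10, Apoc3 and Asnsd1, all at 0.08 with 2 probes each. The members were not each other's nearest: Ckmt2 and Ak1 were the closest pair at 0.28, and Ampd1 lay 0.57 from Ak1, 0.72 from Ckm and 0.77 from Ckmt2. All these profiles share the same arrays and the same Pre RNA.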

How the data were processed

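The authors deposited 1 log ratio of the 2 channels, read here as log10, per probe and array for 13872 probes. The log base is not stated. It was inferred from tiny rounding residues in the deposited values, from 0 on the 1 h array to 29 on the 0 h array, so log10 remains an inference. The direction of the ratio, the image analysis and the normalisation are not given in the sources used here; depth is not defined for arrays, and 1 array per group limits the precision.

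Zeros, counting tiny rounding residues as 0 (665 to 1762 per paced array, 201 in sham), and values shared within a run of 289 probes (154 in sham) were set to missing. The sham array also had 485 empty values, and the paced arrays had 0. Ratios were converted to log2 and centred on the array median. Of the probes, 6609 had exactly 1 symbol, 284 several and 6979 none in the platform annotation; 6599 of the 6609 matched the GRCm38.p6 table by Entrez ID. That annotation is the only link from spot to gene. The probes of a gene were averaged. cDNA spots can bind close relatives, so Ckm and Ckb, or different adenylate kinases, may share signal. A gene was called at 2-fold. The step was tested on simulated data with small noise, equal on all arrays, and the same shift for all probes of a gene. That setting checks the code and cannot show how calls hold under the probe spreads seen here. Pathway neighbours were named when 2-fold from sham at any time or direct partners of the members, and for each member the 3 genes nearest in profile. The genes for the exit of ATP from mitochondria were named outside this rule. Members, lists and the handling of zeros were chosen with earlier results of these data known. Alternatives were zeros kept, arrays scaled, no centring, probe medians, shared probes and a 1.5-fold threshold. Python 3.11.15, numpy 2.4.6, scipy 1.17.1 and pandas 2.3.3 were used.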

Additional observations from a re-analysis of the deposited data

How the results depend on the processing

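With 1 array per group no array could be left out, and no paired analysis was possible because no group had a second replicate. Of 110 recomputed differences from sham, 106 moved by less than the SD over probes. This bound is loose where probes spread widely, so the count does not measure stability. Ckm at 0 h, at 0.54 and 0.06 with probe medians, was within its SD of 0.94. Ampd1 at 8 h, at -0.73 and -1.30 with scaling, was within its SD of 0.68. With arrays scaled to a common spread, Ak1 stood at -0.41 after 1 h and -0.68 after 8 h and Ampd1 at -0.56 after 1 h from sham; with probe medians Ak1 stood at -0.090 after 24 h. Among these 110 differences the sign turned for Ckm alone. It did so under scaling after 1 h, with probe medians from 1 h onwards and without probe 4 from 3 h onwards. Outside these 110, leaving out Ampd1 probe 1 turned the Ampd1 difference after 1 h to 0.02. The ratios to Pre at 0 h became -0.07 for Ckm and 0.03 for Ckmt2 with probe medians, and -0.12 for Ckm over probes measured on all arrays. The cause was not tested. The count of members 2-fold from sham became 1 at 8 h with scaling and with a 1.5-fold threshold (Ampd1 both times), and 0 at 24 h when every probe had to pass. Over all genes, the counts at 1.5-fold were 752 at 0 h, 353 after 1 h, 345 after 3 h, 559 after 8 h and 703 after 24 h, against 190, 42, 68, 103 and 185 at 2-fold; scaling gave 78 after 1 h, 26 after 3 h and 77 after 24 h, and keeping zeros gave 77 after 1 h, with more genes tested. Of 120 recomputed ratios to Pre, 4 moved by more than the probe SD, all with scaling. With scaling the Ampd1 ratio was also higher at 3 h than at 1 h, and higher at 24 h than at 8 h.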

Other observations

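In Ckm, Ckmt2 and Ampd1 the same probe was the lowest of its gene on the sham array and the highest at 0 h. These were Ckm probe 4, at 0.69 at 0 h and -1.47 in sham, Ckmt2 probe 14, at 0.28 and -0.88, and Ampd1 probe 4, at 0.29 and -0.90. In 28.1% of the 196 genes with at least 4 probes measured on both arrays, 1 probe held both places. Without any single one of its probes in turn, the difference of Ampd1 from sham at 24 h lay between -1.55 and -0.998, that of Ckmt2 between -0.61 and -0.48 and that of Ak1 between -0.48 and -0.36.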
